A study of Mus musculus with 4 samples.

Results

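The genes described here are 10 markers of T cells and natural killer (NK) cells, *Cd3d*, *Cd3e*, *Cd3g*, *Cd4*, *Cd8a*, *Gzma*, *Gzmb*, *Prf1*, *Nkg7* and *Klrb1c*, followed in the olfactory mucosa of young adult and aged mice. They were chosen by gene symbol, as every non-control array probe whose transcript accession maps to 1 of these symbols, which gave 16 probes for the 10 genes out of 45616 genes tested. Nasal mucosa, labelled olfactory epithelium, was taken from C57BL/6J mice aged 8 weeks (young adult) or 16 months (aged). The mice were described as male in the study's design and had no treatment. Each RNA sample was pooled from 5 mice, and 2 pools of each age were hybridized to 1-colour Agilent arrays, 1 array per pool. The labels also name silica aspiration and lung cells, which go against the tissue and the ages given in the other labels. The study's methods count fewer mice of each age for gene analyses than 2 separate pools would need, so the pools of an age may share animals, and P values then measure only the spread between these arrays. *Xist*, an RNA made from the silenced X chromosome in females, was well above background on all 4 arrays (normalized intensities 645 and 612 in young adult and 644 and 637 in aged mice), whereas 0 of 10 probes for 7 genes of the Y chromosome were above background on any array. The arrays thus go against the stated sex of the mice, in both ages alike.

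T cells recognize peptides on other cells through a T cell receptor that signals through the CD3 chains, and the coreceptors CD4 and CD8 divide them into helper and cytotoxic cells. Cytotoxic T cells and NK cells kill infected or damaged cells by releasing granules that hold perforin and granzymes, and NK cells carry receptors of the C-type lectin family in place of a T cell receptor. In the nasal mucosa, lymphocytes lie mainly in the lamina propria and among epithelial cells, where they meet inhaled microbes.

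Markers of olfactory tissue were abundant. The olfactory marker protein gene *Omp* had normalized intensities of 300826 and 286061 in young adult mice and 317836 and 332591 in aged mice, and *Cyp2g1*, a sustentacular cell enzyme, had 229701 and 221117 against 251222 and 252656. T and NK cell transcripts were within reach of the arrays, but not for every gene. Of the 16 member probes, 10 were well above background (the scanner software's own detection flag) on all 4 arrays, 3 on some arrays and 3 on none; detected is used below in the same sense. At least 1 probe was well above background on all 4 arrays for 8 of the 10 genes, the exceptions being *Cd8a* and *Gzmb*. Among all spots, 68.1% and 76.8% carried the flag in young adult mice, against 63.1% and 72.7% in aged mice.

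No T or NK cell marker gene passed the test for an age difference. A gene was called when limma gave P below 0.05 and a false discovery rate (FDR) below 0.25 over all genes tested, as the study's methods set them. Of the 10 genes 0 were called higher and 0 lower in aged mice, and 0 had an unadjusted P below 0.05; among all 45616 genes, 1.65% were called higher and 2.33% lower. On the log2 scale, 5 genes were higher and 5 lower, with a median difference of -0.040 against 0.0093 for all genes, and all 10 differed by less than 1.5-fold where the probes of a gene are averaged on the log2 scale. Probe by probe, 0 of 16 were called higher and 1 was called lower, against 1.84% and 2.65% of all 56605 probes. That probe and the probe with the largest difference both belong to *Klrb1c*. The called probe was well above background on 1 of 2 young adult and 0 of 2 aged arrays, so its direction rests on signals near background. A replicate block, which groups the arrays of the same number in each age, left 0 genes called higher and 0 lower. With 2 arrays of each age, 0 of all genes were called at an FDR below 0.05, and 0 were called when any 1 array was left out, so each call given here holds for the 4 arrays together.

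**Figure D1:**
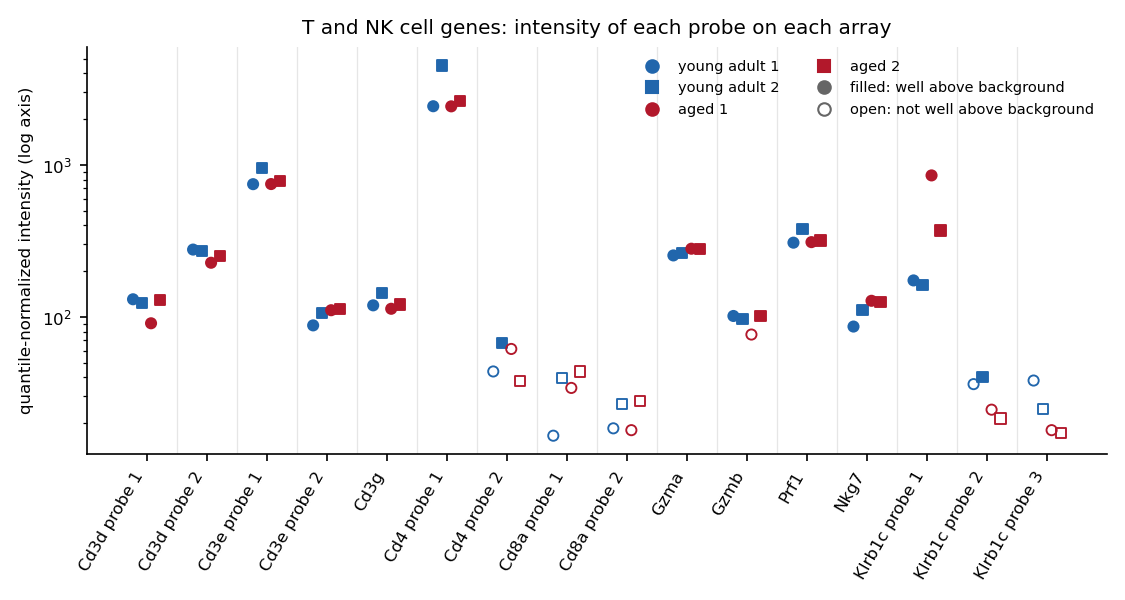
Quantile-normalized intensity (log axis) of each of the 16 probes on each of the 4 arrays, in blue for young adult and red for aged mice, filled where the spot was well above background. The first *Klrb1c* probe is at 853 and 370 on the aged arrays against 174 and 162 on the young adult arrays, and both *Cd8a* probes are open on all 4 arrays.

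The CD3 chains, which carry the signal of the T cell receptor into the cell, had no called age difference. The brighter of 2 probes for *Cd3d*, the CD3 delta chain, had normalized intensities of 277 and 271 in young adult mice and 227 and 251 in aged mice. Both aged arrays were below both young adult arrays, by -0.20 on the log2 scale (SE 0.093, limma FDR = 0.483). The other *Cd3d* probe had 131 and 123 against 90.8 and 129, with the second aged array inside the young adult range. Over both probes the log2 difference of *Cd3d* was -0.21 (SE 0.15, limma FDR = 0.615).

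For *Cd3e*, the CD3 epsilon chain, the 2 probes gave differences of opposite sign. The brighter had 747 and 951 in young adult mice and 749 and 787 in aged mice, so that both aged arrays lay within the young adult range. The dimmer had 87.9 and 106 against 111 and 113, with both aged arrays above. Averaged over the probes, the log2 difference was 0.040 (SE 0.14, limma FDR = 0.923). *Cd3g*, the CD3 gamma chain, had 119 and 143 in young adult mice and 113 and 121 in aged mice, which overlap, with a log2 difference of -0.16 (SE 0.13, limma FDR = 0.659).

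The coreceptor genes differed in how well they could be measured. *Cd4*, the coreceptor of helper T cells, which some macrophages and dendritic cells also express, was read by 1 bright probe at 2434 and 4511 in young adult mice and 2430 and 2621 in aged mice. The second young adult array stood 1.85-fold above the first, and the first young adult array was level with the aged arrays. The log2 difference of -0.39 had an SE of 0.35 (limma FDR = 0.678). It was -0.0027 between the 2 arrays that share a slide, -0.78 between the other 2, and 0.052 without the second young adult array. The other *Cd4* probe was well above background on 1 of 2 young adult arrays and 0 of 2 aged arrays. Its normalized intensities, 43.7 and 67.1 in young adult mice and 61.5 and 37.8 in aged mice, overlap, and no fold is given for it.

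*Cd8a*, the alpha chain of the cytotoxic T cell coreceptor, was below that flag on all 4 arrays with either of its 2 probes. Their normalized intensities ran from 16.5 to 43.7, and no fold is given for them. *Cd8b1*, the beta chain, is named here after its values were seen. It had 89.6 and 129 in young adult mice and 131 and 148 in aged mice, with a log2 difference of 0.37 (limma FDR = 0.58).

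No gene of cytotoxic granules among the members was called either. *Gzma*, the serine protease granzyme A, had normalized intensities of 254 and 265 in young adult mice and 281 and 281 in aged mice. Both aged arrays were above both young adult arrays, with a log2 difference of 0.12 (SE 0.077, limma FDR = 0.601). *Gzmb*, granzyme B, had 101 and 96.9 against 76.5 and 101, where the low value, on the first aged array, was not well above background. Its ages overlap, and its log2 difference was -0.17 (SE 0.17, limma FDR = 0.722). *Prf1*, the pore-forming protein perforin, had 308 and 379 in young adult mice and 310 and 318 in aged mice. Both aged arrays lay within the young adult range, and the log2 difference was -0.12 (SE 0.14, limma FDR = 0.751).

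*Nkg7*, a granule membrane protein of NK cells and cytotoxic T cells, had 86.4 and 112 in young adult mice and 128 and 125 in aged mice. Both aged arrays were above both young adult arrays, and the log2 difference of 0.36 was the largest of the 10 genes with probes averaged on the log2 scale (SE 0.16, limma FDR = 0.472). It was 0.56 between the 2 arrays that share a slide and 0.16 between the other 2. The 5 genes whose centred log2 intensities over the 4 arrays lay nearest to those of *Nkg7* among 17124 candidates were *Olfr1251*, *Padi1*, *Zfp438*, *Pogz* and *Srcin1*, at Euclidean distances of 0.054 to 0.084 on the log2 scale. With 4 arrays many genes can lie that near.

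Over the members, *Gzma* and *Nkg7* had both aged arrays above both young adult arrays, and *Cd3d* had both below, while 7 genes overlapped. Among all genes, 24.2% had both aged arrays above and 21.8% both below. By probe the counts were 4 above, 3 below and 9 overlapping of 16, beside 24.3% above and 22.0% below among all probes. An exact 2-sided permutation test of 2 arrays against 2 cannot give a P below 0.333, so no such separation can pass a test by itself. In pooled tissue RNA, fewer cells of a type and less RNA per cell cannot be told apart.

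**Figure D2:**
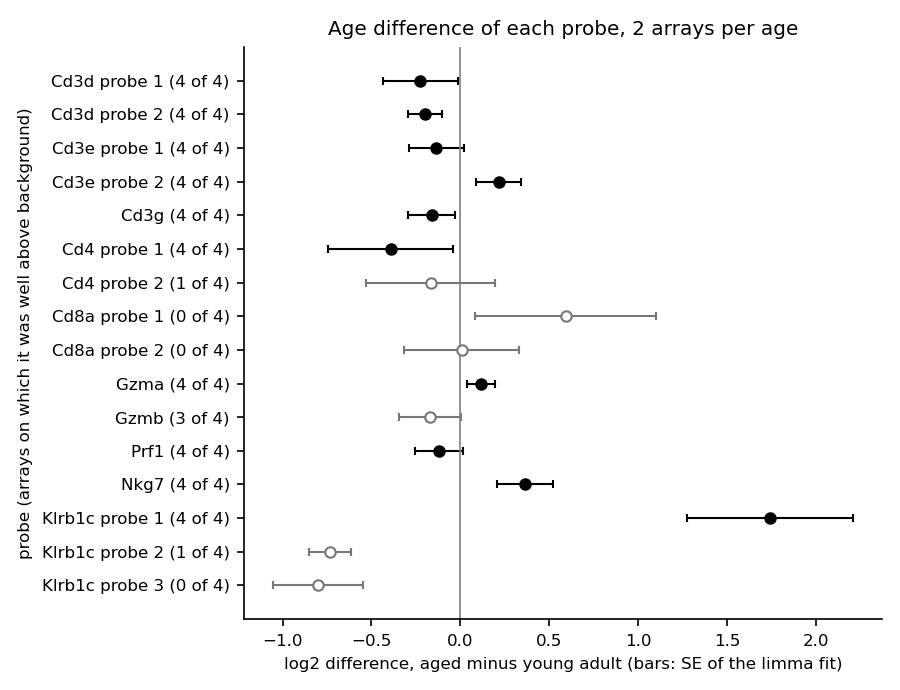
Difference of each probe on the log2 scale, aged minus young adult, with the standard error of the limma fit over 2 arrays of each age, filled where the probe was well above background on all 4 arrays. The 9 filled probes of genes other than *Klrb1c* lie between -0.39 and 0.36, and the filled *Klrb1c* probe lies at 1.74.

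*Klrb1c* encodes a C-type lectin receptor that serves as a standard surface marker of NK cells in C57BL/6 mice. Of its 3 probes, only 1 was well above background on all 4 arrays. The first (A_51_P476687, designed to NM_008527) had normalized intensities of 174 and 162 in young adult mice and 853 and 370 in aged mice, and was well above background on all 4 arrays. Both aged arrays were far above both young adult arrays, and they differed from each other by 2.30-fold, whereas the young adult arrays differed by 1.07-fold. The spots themselves show the same order before any normalization. Their median signals were 217 and 178 in young adult mice and 858 and 375 in aged mice, over local backgrounds of 56 and 30, and 60 and 35.

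The difference of this probe was 3.35-fold, or 1.74 on the log2 scale (SE 0.47), with an unadjusted limma P of 0.0266 and an FDR of 0.31, and it was not called. Between the 2 arrays that share a slide it was 2.30 on the log2 scale, and between the other 2 it was 1.19; without the first aged array it was 1.14. The sign was kept in 17 of 17 alternatives in processing, and the probe was called in 4 of the 16 that gave a test, with FDR values between 0.0244 and 0.664. The call was made with a normexp offset of 50 (limma FDR = 0.159), with no background correction (0.199), with only the probes detected on both arrays of at least 1 age (0.107) and with an intensity trend in the spread (0.0244).

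The second *Klrb1c* probe (A_55_P1979147, designed to NM_001159904) had 36.1 and 40.2 in young adult mice and 24.5 and 21.4 in aged mice. Both aged arrays were below both young adult arrays, but only the second young adult array was well above background. Both aged values lay below the lowest signal of any probe well above background on the same array, and the young adult mean was 1.34-fold above the mean of these 2 limits, with 1 of 2 young adult arrays measured. This was the 1 member probe called, lower in aged mice (limma FDR = 0.217). Neither aged signal was well above background, so no fitted fold is given for it. The call was kept in 5 of the 15 alternatives that gave a test, with FDR values between 0.11 and 0.664. The third probe (A_52_P599514, also designed to NM_008527) had 38.1 and 24.7 against 18.0 and 17.3 and was well above background on 0 of 4 arrays, so no fold is given.

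The average over the 3 probes hides this disagreement. As a gene, with its probes averaged on the log2 scale, *Klrb1c* had 62.1 and 54.4 in young adult mice and 72.2 and 51.5 in aged mice, which overlap, with a log2 difference of 0.069 (SE 0.21, limma FDR = 0.911). Averaged on the linear scale, where the bright first probe weighs most, it had 82.7 and 75.8 against 299 and 136, with a log2 difference of 1.35 (SE 0.45), an unadjusted limma P of 0.0486 and an FDR of 0.356, and was not called. With only the probes detected on both arrays of at least 1 age, the gene rests on its first probe and was called higher by 1.74 (limma FDR = 0.111, with a range of 0.111 to 0.981 over its alternatives). *Klrb1c* belongs to a family of related genes, and whether any of its probes also binds a relative was not tested. The relatives below are named after their values were seen, and none was called. *Klrb1a* had 60.8 and 71.4 in young adult mice and 38.0 and 50.03 in aged mice (limma FDR = 0.367). *Klrb1f* had 58.0 and 47.9 against 32.7 and 39.4 (limma FDR = 0.344), and *Klrb1b* had 45.6 and 40.7 against 58.2 and 36.1 (limma FDR = 0.914).

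The probes most like the first *Klrb1c* probe were those of *Trpm1*, *Slc22a28*, *Olfr1205*, *Mesd* and *Cypt4* among 24883 candidates. This comparison was chosen after the values of the *Klrb1c* probe were seen. *Trpm1*, *Slc22a28* and *Olfr1205* were well above background on 0 of 2 young adult arrays, and *Mesd* on 1 of 2. The likeness thus rests partly on signals at background, and no distance or order is given. *Trpm1* had 36.1 and 29.0 in young adult mice, where it was not well above background, and 185 and 56.5 in aged mice. Like the *Klrb1c* probe, it was higher on the first aged array than on the second.

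**Figure D3:**
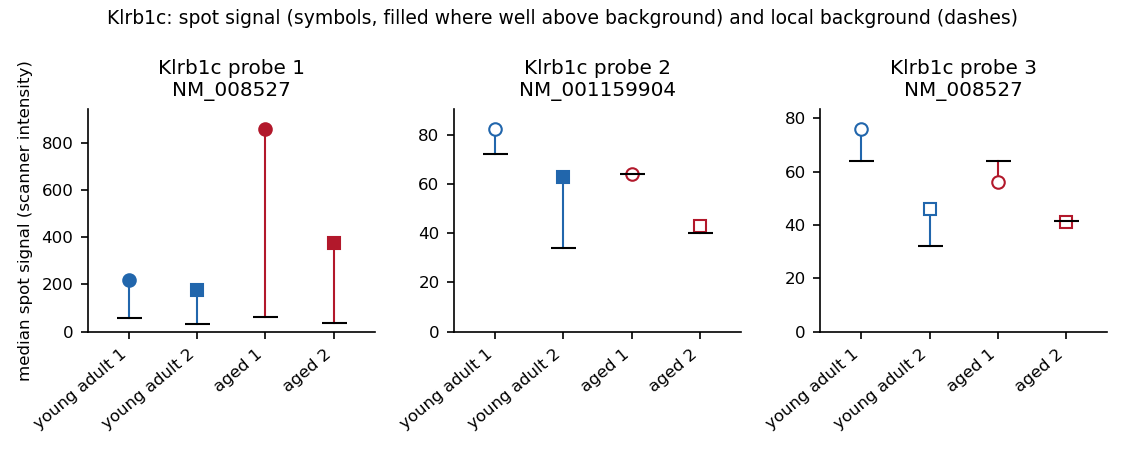
Median scanner signal of the spot of each *Klrb1c* probe (symbols, filled where well above background) and its local background (dashes) on each array; the 3 panels have different vertical scales, all from 0. The first probe reaches 858 and 375 on the aged arrays over backgrounds of 60 and 35, whereas the other 2 probes do not exceed 82.5 on any array.

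*Klrb1c* holds the member probe with the largest difference, and *Gzma* is a granule gene detected on all 4 arrays. The stretches just before their annotated starts are shown as the sequence that precedes each transcript. They are from RefSeq on the GRCm38.p6 build, where 9 of the 10 members had an entry, both on the minus strand and printed 5′ to 3′ along the gene, at chr6:128788642-128788891 for *Klrb1c* and chr13:113100982-113101231 for *Gzma*. Capitals mark the letters AGGAAG, a form of the core bound by ETS factors, and TGTGGT, a form of the core bound by RUNX factors, searched on both strands.
Klrb1c: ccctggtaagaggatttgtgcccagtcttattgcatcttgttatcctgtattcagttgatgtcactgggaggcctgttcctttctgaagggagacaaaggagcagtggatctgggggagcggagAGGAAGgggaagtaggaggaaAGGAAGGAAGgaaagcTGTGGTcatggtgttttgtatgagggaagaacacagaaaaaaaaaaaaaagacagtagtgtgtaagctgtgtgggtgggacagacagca
Gzma: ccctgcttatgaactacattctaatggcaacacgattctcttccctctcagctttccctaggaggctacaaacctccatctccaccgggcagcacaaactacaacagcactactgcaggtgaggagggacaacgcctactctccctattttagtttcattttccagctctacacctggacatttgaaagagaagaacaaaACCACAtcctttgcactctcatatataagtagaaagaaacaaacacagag
In *Klrb1c*, AGGAAG begins 126, 105 and 101 bases before the start, the last copies overlapping each other, and TGTGGT begins 89 bases before it. In *Gzma*, TGTGGT is on the opposite strand, 50 bases before the start. In the 250 bases before the starts of all 32851 promoters, 29.5% hold AGGAAG and 14.0% hold TGTGGT, and each is held by 5 of the 9 members. A match describes the letters only, and no binding was measured here.

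Beyond the 10 members, 9 lists of other T and NK cell genes held 136 genes on the array, of which 86 were detected on both arrays of at least 1 age. Of the 136 genes 2 were called higher in aged mice (1.47%) and 9 lower (6.62%), beside the 1.65% and 2.33% of all genes, and their median log2 difference was -0.15. Of the 9 lower calls 4 were pan-leukocyte genes, and 0 were genes of T cell receptor signalling. The 136 genes include 11 pan-leukocyte genes, and the lower calls *Tyrobp*, *Cx3cr1* and *Maf* are shared with myeloid cells. These shares are thus not those of T and NK cells alone.

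In T cell receptor signalling, 0 of 15 genes were called, 7 were higher and 8 lower, and the median log2 difference was -0.0065. *Prkcq*, a protein kinase C of T cells, had 379 and 424 in young adult mice and 308 and 311 in aged mice (log2 difference -0.37, limma FDR = 0.309). *Txk*, a T cell tyrosine kinase, had 235 and 262 against 346 and 340 (0.47, limma FDR = 0.262). These were the 2 brightest genes of the list by the log2 average over probes, which counts undetected probes too, and they lay on opposite sides. By single probes *Cd247*, the zeta chain of the T cell receptor complex, was brighter. Its brightest probe had 4198 and 5471 against 3498 and 3322, a log2 difference of -0.49 (limma FDR = 0.372). Among 12 T cell transcription factors 0 were called as well, and the median was 0.034. *Ikzf2*, or Helios, had 1579 and 1383 against 1851 and 1600 (0.22, limma FDR = 0.572). *Zbtb7b*, which directs thymocytes to the helper lineage, had 1562 and 1440 against 1572 and 1664 (0.11, limma FDR = 0.67).

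Of 21 surface and costimulatory genes, 1 was called higher and 1 lower. *Ccr7*, the chemokine receptor that brings lymphocytes and dendritic cells to lymph nodes, rose from 88.2 and 93.1 to 135 and 146, a log2 difference of 0.63 (SE 0.089, limma FDR = 0.208). In this gene the ages were apart by far more than the arrays of an age.

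Of 8 genes of gamma delta and innate-like T cells, 2 were called lower. *Cd163l1*, a scavenger receptor carried by gamma delta T cells, had 953 and 922 in young adult mice and 342 and 357 in aged mice. It fell by 1.42 on the log2 scale (SE 0.080, limma FDR = 0.168), which was the largest difference among the called genes of the 9 lists. *Maf*, a transcription factor of several T cell subsets and of macrophages, fell from 1541 and 1570 to 1040 and 1029 (log2 difference -0.59, limma FDR = 0.201). *Il17a*, *Il17f*, *Il23r* and *Blk* of the same list were detected on 0 of 4 arrays.

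Of 17 cytotoxic granule and effector genes, 1 was called. *Gzmm*, granzyme M, rose from 1573 and 1611 to 2209 and 2230, a log2 difference of 0.48 (SE 0.075, limma FDR = 0.219), and both of its probes were called. *Srgn*, the proteoglycan on which granule proteins are packed, had 2974 and 2826 against 2773 and 2476 (-0.15, limma FDR = 0.614). *Gzmd*, *Gzme*, *Gzmf*, *Gzmg*, *Gzmk*, *Gzmn*, *Fasl* and *Ifng* were detected on 0 of 4 arrays.

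Of 28 NK cell receptors and adaptors, 10 were detected on both arrays of at least 1 age. Among all 28, detected or not, 9 were higher and 19 lower, and 1 was called. The median log2 difference was -0.24 over all 28, negative in 17 of 18 alternatives, and -0.35 over the detected genes. *Tyrobp*, the DAP12 adaptor of NK cells and myeloid cells, fell from 3907 and 3789 to 2427 and 2327, a log2 difference of -0.69 (SE 0.079, limma FDR = 0.19). *Klra1*, a receptor of the Ly49 family, had 1053 and 932 in young adult mice and 1065 and 1378 in aged mice (0.29, limma FDR = 0.573). *Ncr1*, a receptor that marks NK cells, was detected on 0 of 4 arrays, and so were *Klrc1*, *Klrc3*, *Klre1*, *Klri1*, *Klri2*, *Klra5*, *Klra10*, *Cd160* and *Crtam*. Beside the higher signal of the first *Klrb1c* probe on the aged arrays, 0 NK cell receptors on the list were called higher. Of 6 Clec2 genes, some of which encode ligands of Klrb1 receptors, 0 were called. *Clec2d* had 1932 and 2538 against 1794 and 2048 (-0.21, limma FDR = 0.681), and *Clec2e* had 127 and 154 against 125 and 124 (-0.17, limma FDR = 0.639).

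Of 18 lymphocyte cytokines and chemokine receptors, 1 was called. *Cx3cr1*, the fractalkine receptor of monocytes, macrophages and some NK and T cells, fell from 497 and 475 to 259 and 247, a log2 difference of -0.94 (SE 0.082, limma FDR = 0.178). *Il18*, a cytokine that activates NK cells, had 1300 and 1253 against 1514 and 1491 (0.24, limma FDR = 0.373). *Ccl5*, a chemokine made by T and NK cells, had 877 and 937 against 1037 and 1006 (0.17, limma FDR = 0.506).

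Of 11 pan-leukocyte genes 11 were lower and 4 were called, with a median log2 difference of -0.50 that stayed between -0.53 and -0.39 in 18 of 18 alternatives. *Cd52*, a surface glycoprotein of lymphocytes and myeloid cells, fell from 4179 and 3943 to 2373 and 2326 (-0.79, limma FDR = 0.185). *Rac2*, a GTPase of blood cells, fell from 644 and 698 to 358 and 401 (-0.82, limma FDR = 0.201). *Itgb2*, the beta chain of leukocyte integrins, fell from 391 and 448 to 244 and 253 (-0.75, limma FDR = 0.209). *Coro1a*, an actin-binding protein of leukocytes, fell from 2403 and 2504 to 1710 and 1693 (-0.53, limma FDR = 0.21). In all 4 genes both aged arrays were below both young adult arrays. The summed intensity of the list was 11837 and 11771 in young adult mice and 8362 and 8182 in aged mice.

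**Figure D4:**
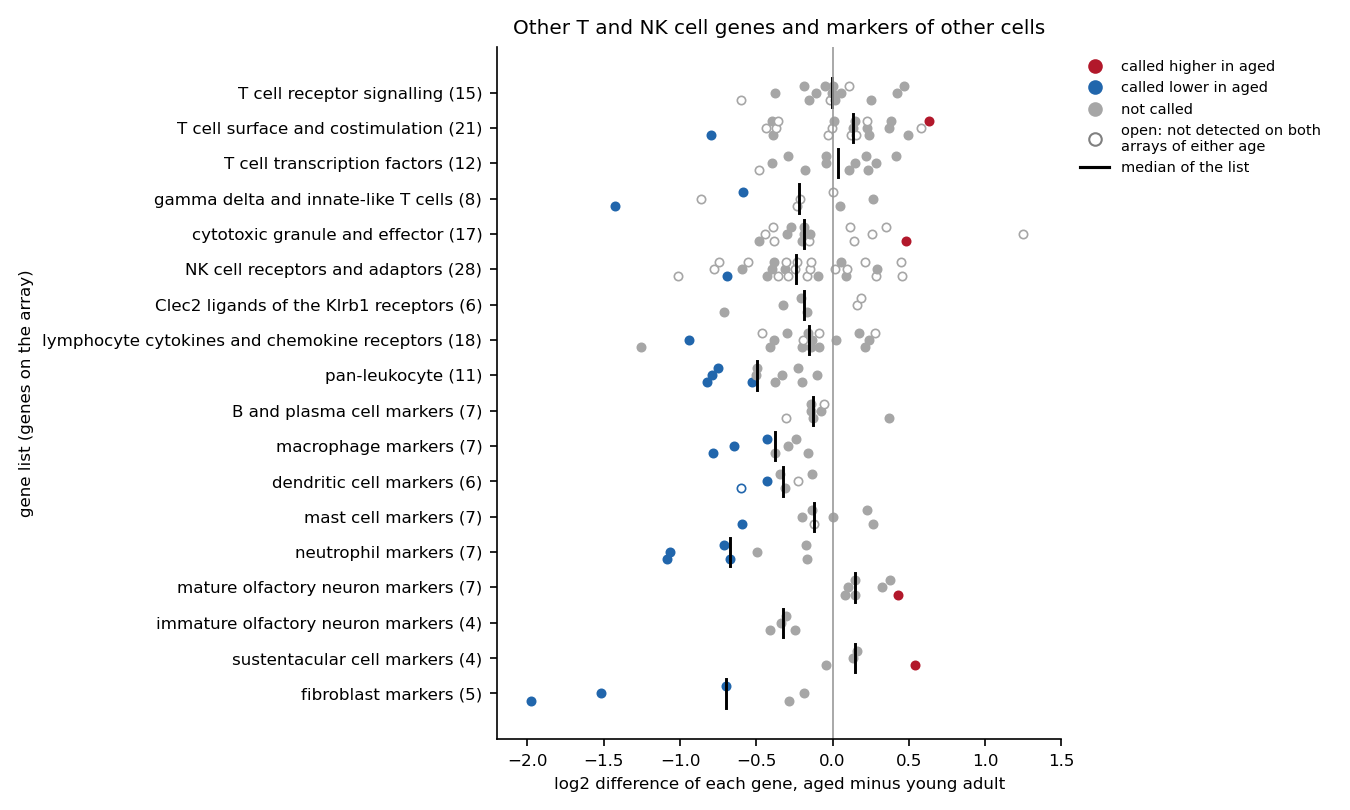
Log2 difference of each gene, aged minus young adult. Shown are the 9 lists of T and NK cell genes, pan-leukocyte genes included, and 9 lists of markers of other cells. Called genes are in red (higher) and blue (lower). Open circles are genes detected on both arrays of neither age, and a bar marks each list's median. The pan-leukocyte median lies at -0.50 and that of T cell receptor signalling at -0.0065.

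The medians of the macrophage, neutrophil and dendritic cell lists, -0.38, -0.67 and -0.33, kept their sign in 18 of 18 alternatives. Of 7 macrophage markers 7 were lower and 3 called, with summed intensities of 10545 and 11101 in young adult mice and 8424 and 8423 in aged mice. The most abundant, *Csf1r*, the receptor of a macrophage growth factor, had 3006 and 3363 against 2618 and 2584 (log2 difference -0.29, limma FDR = 0.379) as the average of 2 probes that disagree. The brighter *Csf1r* probe had 9629 and 10098 against 6390 and 6325 and was called lower by 0.63 (limma FDR = 0.187), and the other differed by 0.054 (limma FDR = 0.874). *Cd68* fell by 0.78 (limma FDR = 0.201) and *Mrc1* fell by 0.65 (limma FDR = 0.201). Of 7 neutrophil markers 7 were lower and 4 called, with sums of 278408 and 267196 against 174546 and 164997. These sums are nearly all *Ltf*, a lactoferrin gene that glands express too (-0.67, limma FDR = 0.201), but *S100a8* and *S100a9*, calcium-binding proteins of neutrophils, fell by 1.07 and 1.08 (limma FDR = 0.178 for both).

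Of 6 dendritic cell markers 6 were lower and 2 called, with sums of 2460 and 2438 against 1666 and 2350. The brightest, *Siglech*, has 1 probe that differed by 0.010 and 1 detected on 0 of 4 arrays, whose low value on the first aged array sets the gene's log2 difference of -0.31 (limma FDR = 0.656). *Cd209a* fell by 0.43 (limma FDR = 0.248). *Clec9a* was called lower (limma FDR = 0.241), but with both probes well above background on 1 of 2 young adult arrays and 0 of 2 aged arrays, so no fold is given for it. *Xcr1* was detected on 0 of 4 arrays.

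Of 7 B and plasma cell markers 0 were called, with sums of 8444 and 8186 against 8425 and 6969. The most abundant was *Jchain*, which joins secreted antibodies, with 7595 and 7297 against 7358 and 6196 (-0.14, limma FDR = 0.678). Of 7 mast cell markers 1 was called, with sums of 4537 and 4678 against 3911 and 3887. *Kit*, the stem cell factor receptor, fell by 0.60 (limma FDR = 0.216), and the most abundant, *Hdc*, which makes histamine, differed by -0.20 (limma FDR = 0.41).

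Outside the leukocytes, 5 of 5 fibroblast markers were lower and 3 called, with sums of 234143 and 210025 against 120806 and 113001. *Col1a1* and *Col1a2*, the chains of type I collagen, fell by 1.98 and 1.52 on the log2 scale (limma FDR = 0.168 and 0.178), and the most abundant, *Dcn*, differed by -0.19 (limma FDR = 0.628). Of 7 mature olfactory neuron markers 7 were higher and 1 was called, with sums of 480161 and 465531 against 524813 and 533596. *Stoml3*, a membrane protein of their cilia, rose by 0.43 (limma FDR = 0.243), and *Omp* differed by 0.15 (limma FDR = 0.549). Of 4 immature neuron markers 4 were lower and 0 called, with sums of 42395 and 41145 against 34511 and 33442, the most abundant being *Stmn2* (-0.25, limma FDR = 0.379). Of 4 sustentacular cell markers 1 was called higher, *Cyp1a2* (0.54, limma FDR = 0.209), with sums of 300728 and 288036 against 326299 and 331737. Whether the makeup of the tissue bears on the lower leukocyte genes was not tested.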

How the data were processed

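Total RNA of nasal mucosa was measured on 4 one-colour Agilent arrays, 2 pools of 5 mice for each age. The authors deposited, per array, the scanner software's spot intensity, local background and detection flags for 62976 spots. These intensities were processed with limma 3.58.1 in R 4.3.3 by background correction, averaging of the spots of a probe, quantile normalization and averaging of the probes of a gene, which the study's methods name. Normexp with an offset of 0, the removal of control and outlier spots and the log2 scale of the averages were chosen here. Each gene or probe was fitted with lmFit and eBayes on age, and FDR is Benjamini-Hochberg adjusted over all 45616 genes or 56605 probes. Accessions were named through RefSeq (GRCm38.p6), which matched 58.3% of probes. The fits were tested on simulated data. The number of arrays limits the precision. The first array of each age shares slide 1 and the other 2 arrays lie on slides of their own, so with slide as a term the difference is that of slide 1 alone, with no test.

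The members and lists were chosen with earlier results of these data known. Named are all members with every probe; of each list the called genes (at most 4 rises and 4 falls) and, where fewer than 2 were called, its 2 brightest by the log2 average over probes; of marker lists the brightest and any called gene, at most 3; and the 5 genes most like the member with the largest difference. Exceptions are named as such. The alternatives changed background correction, signal, normalization, outlier spots, dim probes, the spread model, the replicate block, the arrays, the FDR limit and how probes were averaged.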

Additional observations from a re-analysis of the deposited data

How the results depend on the processing

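Counts of calls moved with the processing. Genes called higher and lower, 754 and 1063, became 1298 and 1693 with a normexp offset of 16, 2107 and 2478 with an offset of 50, 1788 and 2241 with no background correction, 2030 and 2346 with the processed signal quantile normalized, 3446 and 3707 with only the probes detected on both arrays of at least 1 age, 3607 and 3517 with an intensity trend in eBayes, and 1134 and 1599 with probes averaged on the linear scale. They were 0 and 0 at an FDR below 0.05, and 0 and 0 in every fit without 1 array, in which the lone array of an age is assumed to vary like the other age. The cause was not tested.

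Member probes called higher numbered 1 in place of 0 with an offset of 50, no background correction, only such probes, the intensity trend (the first *Klrb1c* probe each time) and the processed signal quantile normalized (*Nkg7*), and with only such probes 1 member gene was called higher. Member probes called lower numbered 0 in place of 1 with either 75th percentile scaling, cyclic loess, only such probes, the intensity trend, an FDR below 0.05 or any array left out. The members' median log2 difference of -0.040 was 0.16 on the slide that holds both ages, and between -0.14 and 0.063 with 1 array left out.

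Signs of members turned as follows. On the slide that holds both ages, the log2 difference was 0.012 for *Prf1* and 0.0025 for the brighter *Cd3e* probe. The *Cd4* gene was at 0.24 there, but its bright probe alone was at -0.0027. Its dim probe, which the gene value averages in, was not well above background on either array of that slide. With 1 array left out, the log2 difference ranged from -0.11 to 0.19 for *Cd3e*, -0.66 to 0.097 for *Cd4*, -0.37 to 0.033 for *Gzmb*, -0.27 to 0.030 for *Prf1* and -0.17 to 0.31 for *Klrb1c*. By probe it ranged from -0.48 to 0.029 for the dimmer *Cd3d* probe, -0.31 to 0.039 for the brighter *Cd3e* probe and -0.84 to 0.052 for the bright *Cd4* probe. *Cd3e* was -0.13 by its brightest probe and -0.095 averaged on the linear scale. *Cd3d*, *Cd3g*, *Gzma* and *Nkg7* kept their sign in 19 of 19 alternatives. The log2 difference of *Klrb1c*, 0.069, was 1.35 with probes averaged on the linear scale and 1.74 by its brightest probe.

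Signs also turned for signals at or near background. Their log2 differences follow only to show how far they moved with the processing, and measure no fold between the ages. With 1 array left out they ranged from -0.15 to 0.75 for *Cd8a*, -0.040 to 1.22 and -0.31 to 0.32 for its 2 probes, and -0.52 to 0.18 for the dim *Cd4* probe. On the slide that holds both ages they were 0.49 for the dim *Cd4* probe and -0.040 for the second *Cd8a* probe. With the processed signal quantile normalized, *Cd8a* was -0.016 and its second probe -0.072; that probe was -0.012 with 75th percentile scaling and -0.0081 with cyclic loess. The third *Klrb1c* probe was 0.36 with the processed signal scaled to the 75th percentile.

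With the replicate block, 0 genes were called higher, 0 lower and 0 member probes lower; same-numbered arrays deviated with a correlation of -0.0779 over genes. Slide as a random block was not run, since duplicateCorrelation gives no estimate for 3 slides and 4 arrays. Signal over background limits *Cd8a*, *Gzmb* and the 2 dim *Klrb1c* probes.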
